A study of Mus musculus with 8 samples.

Results

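The Rhox cluster is a run of reproductive homeobox genes on the mouse X chromosome. Its members were taken by name, as the genes of chromosome X whose symbol is Rhox, a number and at most 1 letter, with a single entry kept for each symbol. This gave 32 of the 50902 genes measured. They lie within chrX:37213804-38129967 of the mm10 build, a span of 916 kb, and all 32 have the coordinates of GENCODE vM21. The cluster was picked for description because its change between the cells compared here was already known, so the values of its genes in that comparison are given as a description, without p-values, and counts of calls among them are printed for reference and support nothing.

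The data are RNA-seq of mouse E14 embryonic stem cells (ESCs) grown in serum-free N2B27 medium with LIF and the 2i inhibitors. All cells carried a piggyBac transgene for BAZ2A, the large subunit of the nucleolar remodelling complex NoRC, with Flag and HA tags (F/H) and with resistance to the siRNA, and all were transfected with siRNA against the endogenous Baz2a and collected 3 days later. The transgene was wild type in ESC + F/H-BAZ2A WT and lacked the TAM domain (TIP5/ARBP/MBD) in ESC + F/H-BAZ2A ΔTAM, called WT and ΔTAM cells from here on, with 4 libraries of each. Both lines were derived separately from single-cell clones, so a difference between the transgenes and one between the clones cannot be told apart, and nothing states that the 4 libraries of a line came from separate cultures, so errors and p-values measure the spread between these libraries.

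Rhox genes encode homeodomain transcription factors that are used mainly in the testis, epididymis, ovary and placenta. The genes fall into the α, β and γ subclusters along the chromosome, and in the mouse the α subcluster has grown by repeated duplication of a unit that holds Rhox2, Rhox3 and Rhox4. In the embryo proper much of the cluster is kept silent by DNA methylation, and Rhox5 (also called Pem), the founding member, is the one best known from cultured ESCs.

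Levels were deposited as RPKM, reads scaled to the size of the library and to the length of the gene, which here is the whole gene span with its introns. Multiplied by that span, nearly all values of a library were multiples of the same smallest amount, which was taken as 1 read. Under this reading the libraries were scaled to totals of 48707447 to 51605322 reads in WT and 43808555 to 58080936 reads in ΔTAM cells, of which 7267894 to 7700001 and 6573212 to 8680058 reads lay on genes. Baz2a, which reads from the endogenous gene and from the transgene may both reach, was at 10.5 ± 0.529 RPKM (SD, n = 4) in WT and 18.3 ± 0.824 RPKM (SD, n = 4) in ΔTAM cells without overlap, so total Baz2a mRNA was not matched between the lines. For the protein, the authors report similar BAZ2A levels in both lines by western blot.

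The sequences upstream of the 4 Rhox genes with the most reads differ in how many CG dinucleotides they hold. Each is the 250 bases before the start in RefSeq (GRCm38.p6), 5′ to 3′ on the gene's strand, with every CG, the site of DNA methylation, in capitals. Rhox1, at chrX:37222259-37222508 on the minus strand, has 0 CG.

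Rhox1: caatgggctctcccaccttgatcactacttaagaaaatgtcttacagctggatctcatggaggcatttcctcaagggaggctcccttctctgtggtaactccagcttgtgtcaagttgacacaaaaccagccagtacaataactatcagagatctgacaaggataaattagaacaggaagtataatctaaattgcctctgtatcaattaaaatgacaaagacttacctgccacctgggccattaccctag
Rhox2a, chrX:37244742-37244991 on the plus strand, with 5 CG: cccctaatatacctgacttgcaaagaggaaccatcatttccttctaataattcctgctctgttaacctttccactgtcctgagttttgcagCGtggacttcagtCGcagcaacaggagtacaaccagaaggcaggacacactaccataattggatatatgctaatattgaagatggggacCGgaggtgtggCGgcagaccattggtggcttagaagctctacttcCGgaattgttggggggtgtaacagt
Rhox5, chrX:37754358-37754607 on the plus strand, with 4 CG: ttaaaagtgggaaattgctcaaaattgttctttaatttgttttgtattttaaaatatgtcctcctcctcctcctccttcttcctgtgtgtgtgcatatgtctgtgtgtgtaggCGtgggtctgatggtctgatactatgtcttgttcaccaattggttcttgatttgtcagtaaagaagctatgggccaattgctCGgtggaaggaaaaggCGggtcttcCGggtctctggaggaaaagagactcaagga
Rhox13, chrX:38120590-38120839 on the plus strand, with 4 CG: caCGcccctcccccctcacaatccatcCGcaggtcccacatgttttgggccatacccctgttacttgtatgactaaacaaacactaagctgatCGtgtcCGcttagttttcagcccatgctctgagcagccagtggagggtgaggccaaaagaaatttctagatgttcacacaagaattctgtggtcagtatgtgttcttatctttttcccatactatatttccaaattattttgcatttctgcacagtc

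The RefSeq start of Rhox5 lies far upstream of the deposited gene, which begins at base 37804842, and that of Rhox13 lies somewhat upstream of its deposited start at base 38121219, so these windows precede starts that the deposited spans do not include. RefSeq promoter windows of 300 bases, 250 before and 50 after the start, were found for 25 of the 32 Rhox genes. They held 0 to 12 CG with a median of 7, and the median of all 32851 windows was also 7. The windows split by subfamily. Those of the 6 Rhox4 copies held 10 to 12 CG, those of 7 Rhox2 copies 5 to 9, and those of the 6 Rhox3 copies 2 to 4.

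The Rhox2 windows and that of Rhox5 share the letters CCGGAAG, which hold the core bound by ETS-family factors such as GABPA. The motif was chosen after looking at these sequences and was searched on both strands, and it reads CTTCCGG on the gene's strand in every Rhox window that holds it. It was in 8 of the 25 Rhox windows (32.0%), namely all 7 of Rhox2 and that of Rhox5, in 6.79% of the windows of chromosome X and in 8.86% of all windows. The Rhox2 copies are near-identical duplicates and do not count as separate occurrences. The stretches around it are shown with the motif in capitals. The rest of the windows was not compared between the Rhox2 copies.

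Rhox2a, chrX:37244923-37244975, plus strand: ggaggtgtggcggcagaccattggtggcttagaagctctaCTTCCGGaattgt
Rhox2d, chrX:37493352-37493404, plus strand: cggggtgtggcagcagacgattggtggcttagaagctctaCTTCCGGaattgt
Rhox2g, chrX:37643471-37643523, minus strand: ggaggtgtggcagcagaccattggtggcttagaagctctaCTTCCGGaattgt
Rhox5, chrX:37754534-37754586, plus strand: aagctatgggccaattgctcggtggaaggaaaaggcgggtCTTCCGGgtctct

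The stretch of Rhox2a recurs without a change at Rhox2b, Rhox2c, Rhox2e and Rhox2h, while that of Rhox2d differs from it at 4 bases and that of Rhox2g at 1 base. Rhox2f has no window in the table. The match is a description of the letters and says nothing of binding in these cells.

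Summed over the cluster, reads were more numerous in ΔTAM cells. The 32 genes together had 248, 220, 196 and 201 reads in the WT libraries and 584, 512, 626 and 731 in the ΔTAM libraries. As RPM, reads scaled to the size of the library alone, this was 4.29 ± 0.488 (SD, n = 4) in WT and 12.2 ± 0.614 (SD, n = 4) in ΔTAM cells, a ratio of 2.85, and every ΔTAM library was above every WT library. In bulk RNA, more expressing cells and more RNA per cell cannot be told apart. Rhox5 alone held 61.5% of the WT reads and 49.3% of the ΔTAM reads, and without it the ratio was 3.75. Of the 1243 ΔTAM reads on the other genes, Rhox1 held 425, Rhox2a 300 and Rhox13 292, so the sums rest mostly on these genes and Rhox5.

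Of the 32 genes, 24 had at least 1 read in some library, 15 of them in WT and 23 in ΔTAM cells. The mean RPM was higher in ΔTAM cells for 23 and lower for 1, Rhox7b, which had a single read in all 8 libraries. In 10 genes every ΔTAM library was above every WT library (Rhox1, Rhox2a, Rhox2b, Rhox2c, Rhox2e, Rhox2f, Rhox2g, Rhox5, Rhox9 and Rhox13), and over all genes with a read this held for 10.7%. Another 8 genes had no read anywhere (Rhox3a, Rhox3e, Rhox3f, Rhox3h, Rhox4f, Rhox8, Rhox11 and Rhox12), and a count of 0 over the 4 libraries of a line allows up to 3 reads by counting error alone. By subcluster, 17 of 22 α genes, 5 of 6 β genes and 2 of 4 γ genes had reads, with 7, 2 and 1 of the non-overlapping genes.

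**Figure D1:**
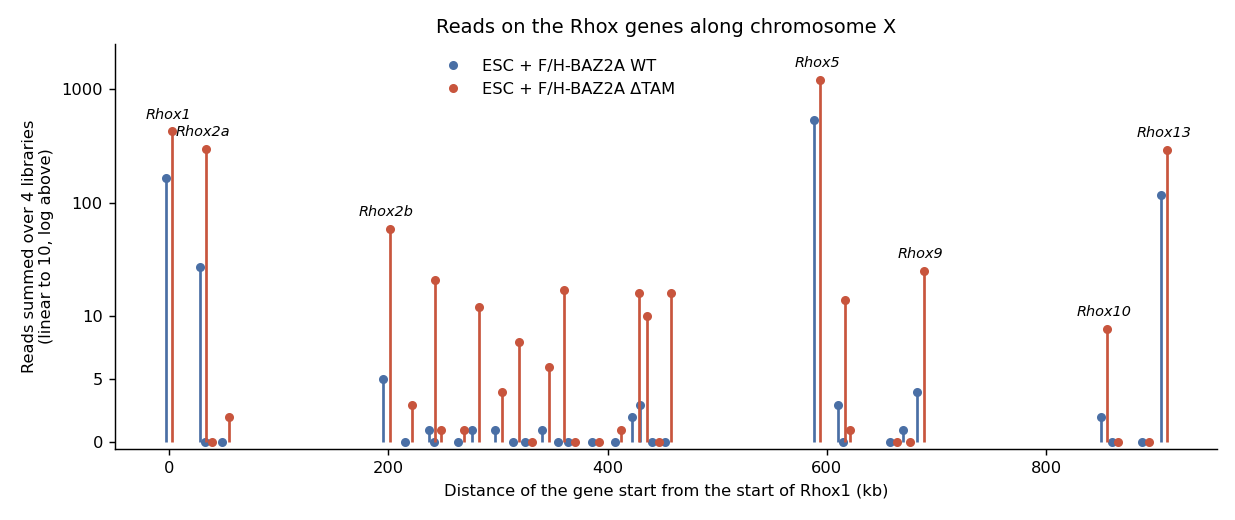
Reads of each Rhox gene summed over the 4 libraries of a line (y axis, linear to 10 and log above) against the distance of its start from that of Rhox1 in kb (x axis), with WT cells in blue and ΔTAM cells in red, shifted sideways for sight. The tall stems are Rhox1, Rhox2a, Rhox5 and Rhox13, and of the other genes all but Rhox2b stay at 25 reads or fewer.

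Only 4 Rhox genes reached a mean of 0.1 RPKM over the 8 libraries, and the same 4 a mean of 10 reads: Rhox1, Rhox2a, Rhox5 and Rhox13. For 3 of them, Rhox1, Rhox2a and Rhox13, the WT mean was under 0.1 RPKM, so they passed through their ΔTAM level. All 4 were among the genes called higher in ΔTAM cells by limma at an adjusted p under 0.05, as were 19.9% of the 9000 genes tested, and all 4 were called by limma voom on the recovered reads, as were 21.8% of 12657 genes. This comparison is the one the cluster was chosen on, so nothing is read from these counts.

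Rhox5 was the most abundant member in both lines. It is known from Sertoli cells, where androgen drives it, and from the placenta and ESCs. It lies at chrX:37804842-37808876 on the plus strand (ENSMUSG00000095180.8). Its WT libraries stood at 0.783, 0.664, 0.606 and 0.567 RPKM and its ΔTAM libraries at 1.59, 1.42, 1.48 and 1.49 RPKM. The lowest ΔTAM library was well above the highest WT library. The means were 0.655 ± 0.0942 and 1.50 ± 0.0702 RPKM (SD, n = 4), from 118 to 157 and 251 to 350 reads a library. The log2 fold change was 1.09 (SE 0.085) on the scale of log2(RPKM + 0.1) and 1.20 (SE 0.089) from voom on reads.

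Rhox1, the first gene of the α subcluster, lies at chrX:37213804-37222258 on the minus strand (ENSMUSG00000071773.4). Its levels were 0.112, 0.0919, 0.104 and 0.0802 RPKM in WT and 0.280, 0.219, 0.217 and 0.283 RPKM in ΔTAM libraries. The ΔTAM libraries formed a pair near the lower and a pair near the upper value, all above WT. The WT libraries held 35 to 47 reads and the ΔTAM libraries 81 to 139. The means of 0.0971 ± 0.0139 and 0.250 ± 0.0367 RPKM (SD, n = 4) correspond to a log2 fold change of 0.82 (SE 0.085) on log2(RPKM + 0.1), where the added 0.1 is as large as the WT level itself, and of 1.36 (SE 0.154) from voom.

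Rhox13, a germ cell homeobox gene at the γ end of the cluster, lies at chrX:38121219-38129967 on the plus strand (ENSMUSG00000050197.5). It had 0.0736, 0.0710, 0.0540 and 0.0665 RPKM in WT and 0.152, 0.177, 0.163 and 0.173 RPKM in ΔTAM libraries. All ΔTAM libraries were above all WT libraries, with 60 to 88 against 23 to 32 reads. The means were 0.0663 ± 0.0087 and 0.166 ± 0.0115 RPKM (SD, n = 4), and the log2 fold change was 0.68 (SE 0.055) on log2(RPKM + 0.1) and 1.32 (SE 0.160) from voom.

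Rhox2a, the first Rhox2 copy, lies at chrX:37244976-37249686 on the plus strand (ENSMUSG00000051827.11). Of the 4 genes it had the largest ratio between the lines. Its WT libraries had 0.0256, 0.0165, 0.0218 and 0.0494 RPKM from 6, 4, 5 and 12 reads, and its ΔTAM libraries 0.338, 0.296, 0.307 and 0.329 RPKM from 72, 61, 77 and 90 reads. WT replicate 4 stood apart from the other WT libraries and was still far below every ΔTAM library. The log2 fold change was 1.71 (SE 0.082) on log2(RPKM + 0.1) and 3.50 (SE 0.274) from voom, and the ratio of mean RPKM was 11.2.

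**Figure D2:**
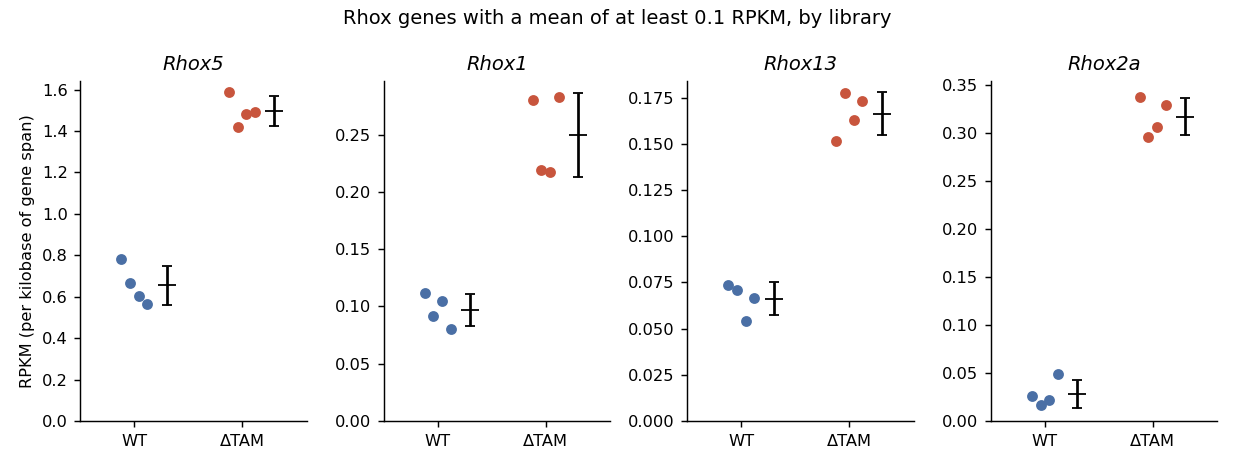
RPKM (y axis, per kilobase of gene span, from 0 in each panel on its own scale) of Rhox5, Rhox1, Rhox13 and Rhox2a in each of the 4 WT (blue) and 4 ΔTAM (red) libraries, with the mean and SD of a line in black. In each panel the ΔTAM points lie above all WT points, and the gap relative to the WT level is widest for Rhox2a.

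Scaled per kilobase of exon in place of gene span (RPKM of exons), the order of the leading genes by their means was not the same in both lines. In WT cells it was Rhox5 at 3.50 ± 0.504, Rhox1 at 0.930 ± 0.133, Rhox13 at 0.662 ± 0.0869, Rhox2a at 0.158 ± 0.0811 and Rhox2b at 0.0306 ± 0.0305 (SD, n = 4), and none of these overlapped its neighbour in the order, while Rhox2b overlapped the next gene, Rhox6. In ΔTAM cells Rhox5 was at 8.01 ± 0.375, Rhox1 at 2.39 ± 0.351, Rhox2a at 1.77 ± 0.109, Rhox13 at 1.66 ± 0.115 and Rhox2b at 0.372 ± 0.0621. Rhox2a and Rhox13 overlapped there, so their order is open within the spread of the libraries, and Rhox2b stood clear of both Rhox13 and the next gene, Rhox2f.

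Among the duplicated subfamilies, the Rhox2 copies carried nearly all of the reads. The 8 copies together had 8, 7, 5 and 16 reads in WT and 113, 96, 110 and 130 in ΔTAM libraries, or 0.177 ± 0.0916 and 2.25 ± 0.183 RPM (SD, n = 4). The ratio of the means was 12.7, and the mean difference of the log2 values was 3.79 (SE 0.343). WT replicate 4, with the highest sum, held 16 reads, well under the lowest ΔTAM library. Rhox2a took 75% of the WT and 66.8% of the ΔTAM reads of the subfamily.

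Rhox2b followed with 1, 1, 0 and 3 reads in WT and 16, 12, 17 and 14 in ΔTAM libraries. Rhox2c had 0, 0, 0 and 1 reads in WT and 5, 5, 5 and 6 in ΔTAM libraries. Neither copy overlapped between the lines, though the span of Rhox2c overlaps that of Rhox3c. Rhox2f had no read in WT and 7, 4, 1 and 5 in ΔTAM libraries. With the WT line set to the floor of 3 reads over its 4 libraries, Rhox2f was 5.70-fold higher in ΔTAM cells. Rhox2h had none in WT and 0, 8, 5 and 3 in ΔTAM libraries, 5.36-fold higher at that floor. Rhox2e had none in WT and 2, 1, 2 and 3 in ΔTAM libraries, 2.68-fold higher at that floor. These folds leave out the counting error of the ΔTAM reads, so they are not lower bounds. Rhox2h overlapped in its first ΔTAM library, which had no read. Rhox2d had 0, 1, 0 and 0 reads in WT and 5, 1, 1 and 5 in ΔTAM libraries, and Rhox2g had 1, 1, 0 and 0 against 6, 4, 2 and 4.

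**Figure D3:**
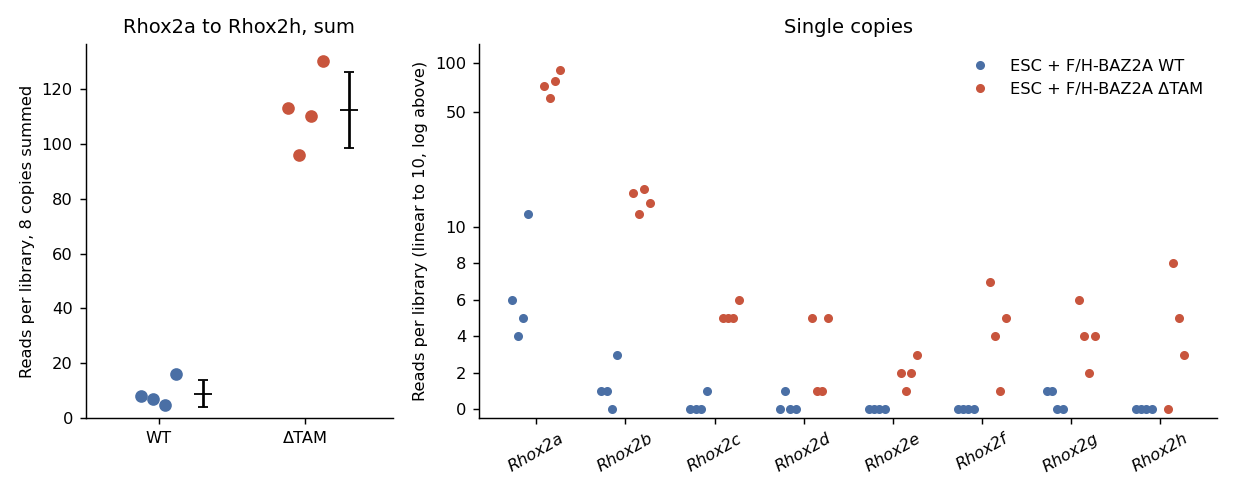
Left, reads per library (y axis) summed over the 8 Rhox2 copies in WT (blue) and ΔTAM (red) libraries, with mean and SD in black. Right, reads per library of each copy (y axis, linear to 10 and log above), where Rhox2a and Rhox2b stand above the other copies in ΔTAM cells.

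The Rhox4 copies, of which one (Ehox) was first described in differentiating ESCs, had far fewer reads. Together they had 1, 1, 2 and 1 reads in WT and 4, 7, 7 and 8 in ΔTAM libraries, without overlap. This was 0.0250 ± 0.0107 and 0.129 ± 0.0298 RPM (SD, n = 4), a ratio of 5.17 and a mean log2 difference of 2.42 (SE 0.323), from 5 and 26 reads in all. Rhox4g led with 1, 0, 1 and 1 reads in WT and 0, 3, 3 and 4 in ΔTAM libraries, and overlapped between the lines. The other Rhox4 copies had at most 4 reads in any library. Rhox4e had 0, 0, 1 and 0 against 0, 4, 1 and 1 reads, Rhox4d 0, 1, 0 and 0 against 1, 0, 2 and 1, and Rhox4a, Rhox4b and Rhox4c had none in WT and 2, 3 and 1 reads over the ΔTAM libraries.

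The Rhox3 copies, which lie between the Rhox2 and Rhox4 copies of the same units, stayed at the floor. They had 0 reads in the WT libraries and 2 in all in the ΔTAM libraries, 1 on Rhox3c and 1 on Rhox3g, so no fold is given. Over the ΔTAM libraries, the Rhox2, Rhox3 and Rhox4 copies of these units thus had 449, 2 and 26 reads. These sums are not scaled for the number of copies, their length or their share of sequence of their own.

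The values of single copies and the sums of subfamilies depend on how reads that fit several copies were counted. This is not given in the sources used here. Of the 32 genes, 7 shared no 100-base stretch of their GENCODE vM21 transcripts with another gene (Rhox1, Rhox5, Rhox8, Rhox10, Rhox11, Rhox12 and Rhox13) and 25 did, reads being 100 bases long. For Rhox2a 33.6% of the stretches were found in no other gene and for Rhox2b 36.9%, against 67.6% for Rhox2f, 81.9% for Rhox2d, 82.3% for Rhox2g and 89.3% for Rhox2h. Among the Rhox2 copies, those with the most reads were not those with the most sequence of their own. Rhox2e had the smallest share among the Rhox2 copies, 9.09%, and also the fewest ΔTAM reads. The shares ranged from 10.3% to 48.6% in Rhox4 and from 5.15% to 67.8% in Rhox3. They compare spliced transcripts only, and the part of shared sequence in the read numbers was not tested.

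**Figure D4:**
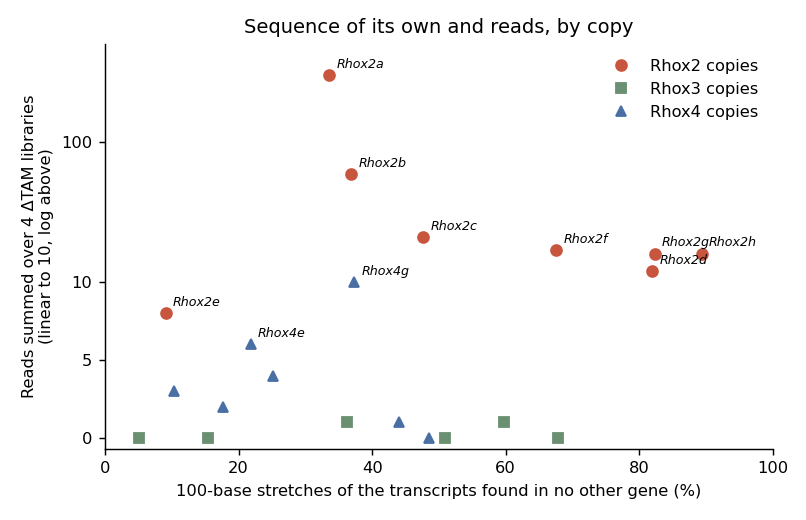
Reads summed over the 4 ΔTAM libraries (y axis, linear to 10 and log above) against the percent of 100-base transcript stretches found in no other gene (x axis) for the Rhox2 (circles), Rhox3 (squares) and Rhox4 (triangles) copies. Rhox2a and Rhox2b lie highest at 33.6% and 36.9%, and the Rhox3 copies lie at 0 or 1 read across 5.15% to 67.8%.

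In the β subcluster, Rhox6 and Rhox9 (also called Psx1 and Psx2) are related genes known from the placenta. Rhox9 had 0, 2, 1 and 1 reads in WT and 7, 5, 8 and 5 in ΔTAM libraries, without overlap. Its reads pooled over each line and scaled to the pooled library totals gave a ratio of 6.29. Rhox6 had 3, 0, 0 and 0 reads in WT and 1, 2, 6 and 5 in ΔTAM libraries, and its WT replicate 1 lay within the ΔTAM range. Transcripts of these genes were largely their own, with 93.2% and 97.6% of stretches found in no other gene. Rhox7a and Rhox7b had 1 read each over all libraries, in a ΔTAM and a WT library in turn. Rhox8, a gene of Sertoli and granulosa cells, had none. Rhox10, a γ gene of spermatogonia, had 0, 0, 2 and 0 reads in WT and 1, 2, 2 and 4 in ΔTAM libraries, which overlapped. The other γ genes beside Rhox13, Rhox11 and Rhox12, had none.

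Another 10 entries on chromosome X carry a Rhox name that the naming rule did not take. Of these, 6 had no read. The pseudogenes Rhox7-ps2, Rhox2-ps, Rhox7-ps1 and Rhox11-ps2 had 2, 3, 3 and 0 reads over the WT and 9, 5, 6 and 2 over the ΔTAM libraries, with at most 3 reads in any library.

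The genes around the cluster were not used to choose it, and their tests come from the fit across all 9000 genes with Benjamini-Hochberg adjustment. Of 62 other entries in the cluster span or within 1 Mb of it, 18 were tested, and 3 were called higher and 3 lower in ΔTAM cells. This is 33.3% of those tested, beside 35.8% of all genes, and without ΔTAM replicate 3, 3 of the 18 were called. The median log2 fold change was -0.022 in the flanks and 0.011 over all genes.

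The exception in size was Gm9, a predicted gene just before the cluster at chrX:37209348-37211041. Its WT libraries had 0.0950, 0.126, 0.0364 and 0.160 RPKM and its ΔTAM libraries 0.653, 0.701, 0.598 and 0.783 RPKM, from 3 to 14 and 50 to 77 reads. The lines did not overlap. The means were 0.104 ± 0.0526 and 0.684 ± 0.0783 RPKM (SD, n = 4), a log2 fold change of 1.97 (SE 0.190, adjusted p = 0.000240 from limma) and of 2.80 (SE 0.296) from voom on reads. As for Rhox2a, WT replicate 4 was the highest of the WT libraries.

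The next genes on that side did not pass. Rnf113a1, a RING finger gene, had a log2 fold change of -0.13 (SE 0.163, adjusted p = 0.570 from limma), and Ndufa1, which encodes a subunit of respiratory complex I, one of 0.025 (SE 0.0805, adjusted p = 0.838). On the far side Zbtb33, which encodes the methyl-CpG binding protein Kaiso, was at 0.405 ± 0.0285 in WT and 0.521 ± 0.0424 RPKM in ΔTAM cells (SD, n = 4), a log2 fold change of 0.30 (SE 0.0612, adjusted p = 0.00751 from limma), without overlap. Lamp2, a lysosomal membrane gene, changed by -0.12 (SE 0.0391, adjusted p = 0.0419) and Cul4b, a ubiquitin ligase scaffold, by 0.16 (SE 0.0423, adjusted p = 0.0209). The call of Lamp2 was lost without WT replicate 1, 2 or 4 or ΔTAM replicate 2, 3 or 4, with an adjusted p up to 0.104, and without a filter (0.0775). That of Cul4b was lost without WT replicate 2 or 3 or ΔTAM replicate 3 or 4, with an adjusted p up to 0.0579, and with quantile normalization (0.0574). The other 2 genes called, both lower, were Slc25a5 (-0.22, SE 0.0387) and C1galt1c1 (-0.23, SE 0.0639). Snora69, with 6 to 10 reads in WT and 2 to 11 in ΔTAM libraries, was at -0.90 (SE 0.509, adjusted p = 0.210 from limma) and was not called. The Rhox genes were chosen on this comparison, so the flanking changes are not weighed against theirs.

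**Figure D5:**
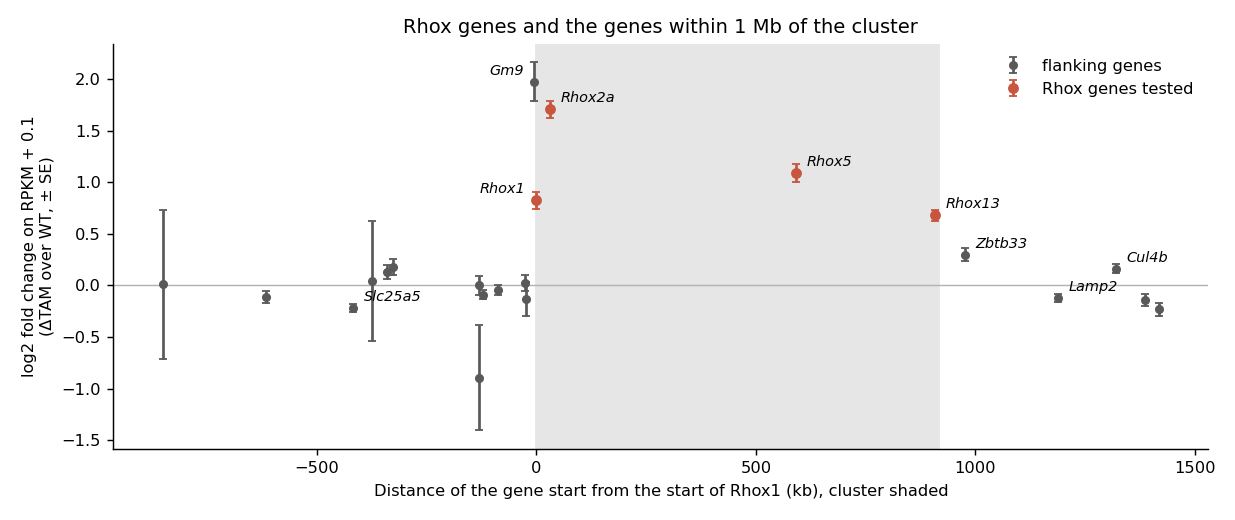
Log2 fold change on log2(RPKM + 0.1), ΔTAM over WT, with its SE (y axis) against the distance of the gene start from that of Rhox1 in kb (x axis), for the 4 Rhox genes tested (red) and the 18 tested flanking genes (grey), with the cluster shaded. Gm9 lies at 1.97 and the other called flanking genes between -0.23 and 0.30. The Rhox genes were chosen on this comparison.

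Over all of chromosome X but the Rhox genes, with the flanking genes included, 280 genes were tested. Of these, 38 were called higher and 58 lower, with a median log2 fold change of -0.050. These 96 calls are 34.3% of the genes tested, near the 35.8% of all genes. Beside Gm9, the largest changes without overlap were those of Xlr3c, higher by 1.30 (SE 0.0609), and of Otud6a, a gene of the ovarian tumour deubiquitinase family, at -0.95 (SE 0.0966, adjusted p = 0.0003 from limma). Of the other X-linked reproductive families, Xlr3, Xlr4, Xlr5, Magea, Mageb and Fthl17, 48 members were found and 6 tested. Of these 4 were called higher, beside 19.9% of all genes tested, and none lower, with a median of 0.46. The largest changes were in Xlr3c (0.112 ± 0.0133 to 0.423 ± 0.0319 RPKM), Xlr4b (0.0836 ± 0.0184 to 0.199 ± 0.0311) and Xlr4a (0.134 ± 0.0235 to 0.220 ± 0.0123), all n = 4 with SD. Xlr3a (0.21, SE 0.0784, adjusted p = 0.0748 from limma) and Xlr3b (0.23, SE 0.0842, adjusted p = 0.0685) were not called. Sequence shared between the Xlr genes was not examined. The WT mean of Xlr4b was under the filter of 0.1 RPKM, so it was tested through its ΔTAM level. Another 17 were at 0 in every library.

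Of 34 other homeobox genes of the PRD class, to which Rhox belongs, 8 were at 0 and 1, the organizer gene Gsc, was tested, at a log2 fold change of -0.29 (SE 0.208, adjusted p = 0.313 from limma). For the next lists the share of all genes tested that was called is again 19.9% for higher and 35.8% for either direction. Of 25 germ-line genes 7 were tested, 5 were called higher and 2 lower, with a median log2 fold change of 0.48. The largest changes were in the tubulin genes Tuba3a (1.17, SE 0.0386) and Tuba3b (0.72, SE 0.0776) and in Dazl, an RNA-binding protein of germ cells (0.66, SE 0.050). The 2 called lower were Cyct (-0.39, SE 0.0871), without overlap, and Dpep3 (-0.37, SE 0.113), which overlapped between the lines. Of 13 factors of DNA methylation and its removal 9 were tested, 5 were called higher and 1 lower, with a median of 0.11. The de novo methyltransferase gene Dnmt3b rose from 0.239 ± 0.0103 to 0.393 ± 0.0178 RPKM (SD, n = 4), a log2 fold change of 0.54 (SE 0.0365). Setdb1, which encodes an H3K9 methyltransferase, changed by 0.20 (SE 0.0307), and Tet2, a 5-methylcytosine dioxygenase, by -0.20 (SE 0.0621, adjusted p = 0.0390 from limma). Ehmt2, Hells and Uhrf1, the last of which recruits the maintenance methyltransferase, were also called higher, by 0.17, 0.14 and 0.087, while the maintenance methyltransferase gene Dnmt1 did not pass (-0.031, SE 0.0219, adjusted p = 0.309). The call of Tet2 was lost without any of the 4 WT libraries in turn and without ΔTAM replicate 2 or 3, with an adjusted p up to 0.0957, and without a filter (0.0832).

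The cells had the markers of ESCs throughout. The summed level of 7 ESC markers was 84.7 to 87.3 RPKM in WT and 72.5 to 78.2 RPKM in ΔTAM libraries. Of these markers 3, Sox2 (-0.42), Klf4 (-0.39) and Esrrb (-0.20 on the log2 scale), were called lower and none higher. Over all 9000 genes tested, 1435 were called lower and 1790 higher. Pou5f1 and Nanog did not pass. Of 11 markers of trophoblast, where Rhox genes are used, Prl3d1 and Tpbpa were at 0 in every library, 4 were tested with Tfap2c called higher (0.19) and Eomes lower (-0.26), and the summed level overlapped between the lines, at 1.43 to 1.58 and 1.49 to 1.81 RPKM. Summed markers of primitive endoderm also overlapped, at 0.0183 to 0.0445 and 0.0361 to 0.0612 RPKM with none of 6 tested, and so did 5 fibroblast markers, at 2.08 to 2.63 and 2.11 to 2.32 RPKM with Col3a1 at 0. Vim led the fibroblast sum, and the other 4 summed to 0.0105 to 0.0187 in WT and 0.0102 to 0.0332 RPKM in ΔTAM libraries. Tfap2c led the trophoblast sum, and the other 10 summed to 0.485 to 0.647 and 0.467 to 0.683 RPKM.

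The markers of 2-cell-like cells, a rare ESC state that resembles the 2-cell embryo, were also higher in ΔTAM cells. Their summed level was 0.290 to 0.412 RPKM in WT and 1.92 to 1.99 RPKM in ΔTAM libraries, and all 7 had reads. All 5 that were tested were called higher, beside 19.9% of all genes tested, with log2 fold changes from 1.27 for Tcstv1 to 1.65 for Tcstv3. The WT mean of all 5 was under the filter of 0.1 RPKM, so they were tested through their ΔTAM level and their count is a description. Among the WT libraries, replicate 4 had the highest sum and the most Rhox2 reads. It also had the lowest level of Rhox5, of Rhox1 and of all Rhox genes together (3.89 RPM, against 4.02 to 4.99 in the others). That total is mostly Rhox5. Without Rhox5 the Rhox sum was 1.61 RPM in WT replicate 4, against 1.83, 1.59 and 1.58 in the others. Rhox13 was lowest in WT replicate 3. Summed germ cell markers, which Dazl led, were at 0.847 to 1.005 and 1.44 to 1.52 RPKM, with 1 of 5, Dazl, tested and called higher. The other 4 summed to 0.105 to 0.118 in WT and 0.104 to 0.130 RPKM in ΔTAM libraries, which overlap. The part of these cell states in the Rhox levels was not tested.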

How the data were processed

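RNA was sequenced from 8 libraries of mouse ESCs, 4 each of ESC + F/H-BAZ2A WT and ESC + F/H-BAZ2A ΔTAM, as polyA-selected, stranded single-end reads of 100 nt. The authors trimmed the reads, mapped them with STAR to mm10 and deposited RPKM per gene for each library, scaled here by gene span. Trimmomatic 0.36 is named in the submitters' processing notes. The gene annotation release, the use of strand in counting and the treatment of reads with several positions are not given in the sources used here.

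Of 51288 entries, 386 that repeated a symbol were set aside. Read numbers recovered from the RPKM were whole, within 0.02 reads, for 99.5% to 99.6% of values. Genes were tested with limma 3.58.1 in R 4.3.3 (lmFit, eBayes with trend) on log2(RPKM + 0.1), kept to genes averaging 0.1 RPKM or more over the libraries, with Benjamini-Hochberg adjustment. The added 0.1 shrinks the fold changes of low genes. A second fit used limma voom on recovered reads, for genes averaging 10 reads or more. The members and all lists were chosen with earlier results of these data known. Named were all Rhox genes with reads, the 3 nearest flanking genes of at least 0.1 RPKM on either side, and up to 3 genes per list with the largest called change and no overlap. Slc25a5, C1galt1c1, Snora69, Gsc, Cyct, Dpep3, Xlr3a, Xlr3b, Ehmt2, Hells, Uhrf1, Dnmt1 and single cell type markers were named after their values were seen. Their calls were not rerun under the alternatives. Scripts were tested on simulated data. Python 3.11.15 was used for sequences, from RefSeq (GRCm38.p6), and figures.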

Additional observations from a re-analysis of the deposited data

Results flagged for a closer look

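A sample was singled out in a group of 4 when its gap to the next exceeded Dixon's 95% critical value. For continuous, normally spread values, chance alone exceeds it in about 1 in 20 groups. A read count that differs from 3 equal ones always exceeds it, so that rate does not hold for such counts. Of 92 groups of 4 libraries checked, 16 had such a sample, and 13 of these were read counts of single Rhox genes, 12 of them at 3 reads or fewer.

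A single read against 0 in the other 3 libraries gave this pattern for Rhox2c in WT replicate 4, Rhox2d and Rhox4d in WT replicate 2, Rhox4e and Rhox7b in WT replicate 3, Rhox3g in ΔTAM replicate 1, Rhox4c in ΔTAM replicate 3, and Rhox3c and Rhox7a in ΔTAM replicate 4. Rhox6 had 3 reads in WT replicate 1 and Rhox10 had 2 reads in WT replicate 3 against 0 in the others. Rhox4g had 0 reads in WT replicate 2 against 1 in the others, and Rhox2c had 6 reads in ΔTAM replicate 4 against 5.

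The summed Rhox4 level in WT replicate 3 was 0.0411 RPM (reads scaled to library size), from 2 reads, against 0.0194 to 0.0201 in the other WT libraries. All Rhox genes but Rhox5 summed to 1.83 RPM in WT replicate 1, against 1.58 to 1.61. The level of the flanking gene Zbtb33 was 0.458 RPKM in ΔTAM replicate 3, against 0.535 to 0.549.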

How the results depend on the processing

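Counts of called Rhox genes are a description under every setting, since the cluster was chosen on this comparison and 3 of the 4 genes tested passed the filter through their ΔTAM level. They were 4 higher and 0 lower in the fit on log2(RPKM + 0.1). Without a filter 9 of 24 were called higher, beside 1941 higher and 1817 lower of all 25439 genes, and with a filter of 1 RPKM on the mean only Rhox5 was left to test, and it was called (1 of 1). The log2 fold changes of these 4 genes kept their direction under each setting that tested them, but their size followed the pseudocount: from 0.36 (1 RPKM added) to 3.50 (voom) for Rhox2a, 0.19 to 1.36 for Rhox1, 0.13 to 1.32 for Rhox13 and 0.59 to 1.20 for Rhox5. Leaving out each library in turn gave 4 Rhox genes each time, log2 ratios of the summed level of 3.57 to 4.10 for Rhox2 and 2.31 to 2.69 for Rhox4, 1440 to 1713 genes higher, 1137 to 1387 lower, and 3 to 6 flanking genes called. Over all genes, 1790 were higher and 1435 lower in the fit on log2(RPKM + 0.1), 590 and 399 of 2148 with the filter of 1 RPKM, and 2761 and 2783 of 12657 with voom. Of the flanking genes 2 of 5 were called with the filter of 1 RPKM. Ndufa1, which was not called, ranged from -0.022 to 0.087 without single libraries and turned to -0.021 without WT replicate 1, -0.022 without WT replicate 4 and -0.0021 without ΔTAM replicate 3. The cause of these shifts was not tested beyond the number of genes each setting tests. Same-numbered libraries of both lines hardly deviated together (r = 0.024 to 0.062 across 9000 genes) and not every library correlated best with its own number, so the replicate numbers were not taken as pairs. With the replicate number as a block, 1557 genes were higher and 1239 lower, the 4 Rhox genes among the higher, and 4 flanking genes were called, without Lamp2 (adjusted p = 0.0592 from limma, over its settings 0.00679 to 0.104). The other 28 Rhox genes had too low a mean for that fit at 0.1 RPKM.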
